A study of Mus musculus with 6 samples.

Results

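The 9 genes described here carry retinoids into the retinal pigment epithelium (RPE) or process them there: Rpe65, Lrat, Rlbp1, Rdh5, Rdh10, Rdh11, Rgr, Stra6 and Ttr. They were chosen by name for that role, and all 9 were found among the 33924 gene symbols of the deposited table. RNA came from RPE/choroid, the pigmented epithelium scraped off together with the vascular layer behind it, of C57BL/6J mice, which are inbred and carry no transgene in the labels. Of the 6 libraries, 3 were from young mice, labelled 1 to 2 months old, and 3 from aged mice, labelled 20 to 24 months in their titles and 22 to 24 months in their time field. The methods of the study give 2 eyes to a sample, without saying whether they came from 1 animal. They also give an older range for the young mice and name both sexes, whereas each sample is labelled male. Libraries were made from total RNA depleted of ribosomal RNA, and reads were assigned to Ensembl transcripts (mouse build GRCm38).

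Vision depends on the chromophore 11-cis-retinal, which light turns into the all-trans form in photoreceptors. The RPE takes the all-trans alcohol back, joins it to a fatty acid, isomerizes the ester to 11-cis-retinol and oxidizes that to the aldehyde, which returns to the photoreceptors. Retinol lost from this loop is replaced from the blood, where it travels on retinol-binding protein bound to transthyretin.

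The values are those of the authors' DESeq2 comparison. For each gene the table gives a mean over the 6 libraries in normalized counts, a log2 ratio of the groups, the standard error (SE) of that ratio, and an adjusted p. No column holds a single library, so the level in a single mouse, the overlap of the groups and the depth of each library are unknown here, and replicate error enters through the SE alone. The sign of the fold change was set so that a positive value is higher in aged mice. A gene is said to have risen or fallen where the adjusted p is under 0.05. Group means are worked out from the mean and the fold change, and carry no error of their own.

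Of the 9 genes, 3 rose with age: Rgr, Rdh11 and Stra6, by 1.39-fold to 1.55-fold. None fell by this test. Lrat, Rlbp1 and Rdh10 had log2 fold changes from 0.33 to 0.35 and passed only the unadjusted p of 0.05, Rpe65 and Ttr had values under 0.10, and Rdh5 had no p-value. Thus 3 of 8 tested genes (37.5%) rose, and 6 of 8 had an unadjusted p under 0.05, all 6 towards higher values in aged mice. Of all 18636 genes tested, 11.3% were higher in aged mice, 9.92% were lower and 16.5% were higher at an unadjusted p under 0.05.

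These genes are abundant, and abundant genes were called higher more often. Among the 1763 tested genes with a mean at least that of Rdh11, the lowest of the set, 24.1% were higher in aged mice, 7.49% were lower and 70.9% had a fold change above 0. At an unadjusted p under 0.05, 583 of these 1763 were higher in aged mice. The median log2 fold change of the 8 tested members was 0.34, against 0.14 for those 1763 genes and -0.01 for all genes tested. All 8 values lay above 0, but those of Rpe65 and Ttr turned negative, -0.05 and -0.07, once fold changes were centred on genes at least as abundant as Rdh11. That centring lowers each log2 fold change by 0.14 and the split over all genes, 2100 higher and 1849 lower as deposited, becomes 1335 and 3106.

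The count of members called higher was 3 with no filter on low genes (7.28% of genes tested), with a mean of at least 100 (14.1%) and with a Wald p for genes that have none (11.3%). It was 2, Rgr and Rdh11, at an adjusted p under 0.01 (7.76%) and under centring on genes with a mean of at least 100 (8.88%), on RPE markers (9.65%) or on genes at least as abundant as Rdh11 (7.16%). A minimum absolute log2 fold change of 1 left 0 members (3.65%).

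**Figure D1:**
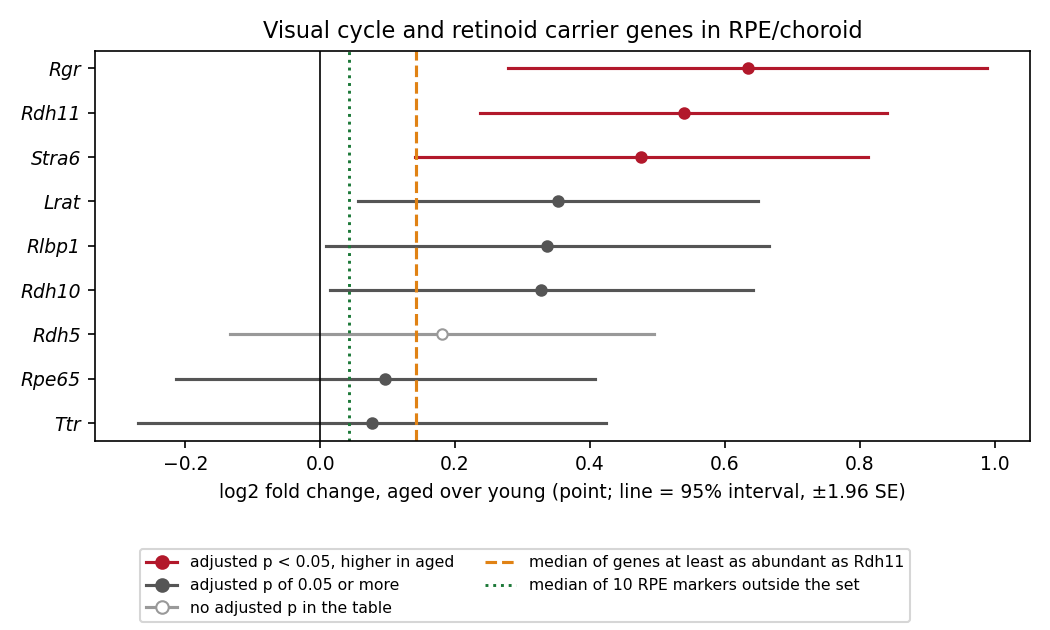
Log2 fold change, aged over young, of each of the 9 genes (points) with its 95% interval (lines), for 3 young and 3 aged libraries. Rgr, Rdh11 and Stra6 (red) passed the threshold, Rdh5 (open) has no adjusted p, and the vertical lines mark 0, the median of 10 RPE markers outside the set (0.04) and the median of genes at least as abundant as Rdh11 (0.14).

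Delivery of retinol from the blood involves Ttr and Stra6. Ttr encodes transthyretin, the carrier that keeps retinol-binding protein in the circulation, and is also made by the RPE itself. It was the most abundant member, ranking 6 among all genes with a mean of 99321 normalized counts, worked out as 96678 in young and 101965 in aged mice. Its log2 fold change was 0.08 (SE 0.18, adjusted p 0.810), with a 95% interval from -0.27 to 0.42. A change within 1.34-fold upwards or to 0.829-fold downwards thus lay inside the interval, and at this SE a log2 difference under 0.45 could not have passed the threshold.

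Stra6, on chromosome 9 at 58063788 to 58153996, encodes the membrane receptor through which the RPE takes retinol from its binding protein. Its mean was 4378 normalized counts, worked out as 3662 in young and 5094 in aged mice. It rose with age by 0.48 on the log2 scale (SE 0.17, adjusted p 0.0305), which is 1.39-fold with a 95% interval from 1.10 to 1.76. This was the weakest of the 3 calls. Centred on the median of genes with a mean of at least 100, on RPE markers or on genes at least as abundant as Rdh11, its log2 fold change was 0.41, 0.43 and 0.33 and its adjusted p was 0.0689, 0.0535 and 0.146, so the call depended on the scaling.

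Lrat, on chromosome 3 at 82892579 to 82903973, encodes lecithin retinol acyltransferase, which makes the retinyl esters that are stored in the RPE and used by the isomerase. Its mean was 25214 normalized counts, worked out as 22150 in young and 28278 in aged mice. The log2 fold change of 0.35 (SE 0.15) had an unadjusted p of 0.0197 and an adjusted p of 0.0787 in the DESeq2 table. A log2 difference of 0.39 was needed to pass at this SE, so Lrat lay just outside the threshold.

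Rpe65, on chromosome 3 at 159599175 to 159625321, encodes the isomerohydrolase that turns all-trans-retinyl ester into 11-cis-retinol. The RNA of this enzyme ranked 26 among all genes, with a mean of 43745 normalized counts, worked out as 42276 in young and 45214 in aged mice. Its log2 fold change was 0.10 (SE 0.16), with an adjusted DESeq2 p of 0.724. The 95% interval of that value ran from -0.21 to 0.41, that is from 0.862-fold to 1.33-fold. A log2 difference of 0.41 would have been needed to pass.

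Rlbp1, on chromosome 7 at 79374870 to 79387048, encodes CRALBP, the protein that holds 11-cis-retinol and 11-cis-retinal in the RPE and in Muller glia. Its mean was 30062 normalized counts, worked out as 26567 in young and 33557 in aged mice. The log2 fold change was 0.34 (SE 0.17), the unadjusted DESeq2 p was 0.0442 and the adjusted p was 0.141. Its 95% interval began at 0.01 and ended at 0.67, so it held values from hardly any change to a 1.59-fold increase.

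The 3 retinol dehydrogenases of the set differed in level and in the size of their values. Rdh5, the main 11-cis-retinol dehydrogenase of the RPE, had a mean of 10046 normalized counts and a log2 fold change of 0.18 (SE 0.16, 95% interval -0.13 to 0.50), but no p-value in the table. DESeq2 can leave a p-value out where a library lies far from the rest, but the table gives no reason. The p-value was missing for 160 genes with a fold change, 48 of them at least as abundant as Rdh11. A Wald p computed from its fold change and SE gave an adjusted p of 0.462. Rdh5, on chromosome 10 at 128913593 to 128922888, also shares 25.6% of its exon bases with Bloc1s1 on the same strand, and 66.9% of its 31-base words occur in no other gene. Bloc1s1 had a mean of 291 normalized counts, and its log2 fold change was 0.16 (SE 0.18, adjusted p 0.579), so few reads of the pair were assigned to it, yet how they were divided is uncertain.

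Rdh10 encodes an all-trans-retinol dehydrogenase that also serves retinoic acid synthesis. Its mean was 19145 normalized counts, worked out as 16978 in young and 21313 in aged mice, and its log2 fold change was 0.33 (SE 0.16, unadjusted p 0.0402, adjusted p 0.132). Like Lrat and Rlbp1, it fell short of the threshold, which at its SE was a log2 difference of 0.41.

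Rdh11, on chromosome 12 at 79174337 to 79192293, encodes a retinol dehydrogenase with activity on all-trans and cis retinoids. It was the least abundant member, with a mean of 2299 normalized counts, worked out as 1874 in young and 2723 in aged mice. It rose with age by 0.54 on the log2 scale (SE 0.15, adjusted p 0.00416), which is 1.45-fold with a 95% interval from 1.18 to 1.79. The adjusted p ran from 0.00369 to 0.0438 over the low-value filters, scalings and Wald p tried, the highest being that of centring on genes of at least its own abundance.

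Rgr, on chromosome 14 at 37034909 to 37048964, encodes the RPE retinal G protein-coupled receptor, an opsin of RPE and Muller glia that binds all-trans-retinal and yields the 11-cis form on illumination. With a mean of 92190 normalized counts it ranked 7 among all genes, directly after Ttr. Worked-out means were 72253 in young and 112128 in aged mice. It had the largest fold change of the set, 0.63 on the log2 scale (SE 0.18, adjusted p 0.00416), which is 1.55-fold with a 95% interval from 1.21 to 1.98. Over the same alternatives as for Rdh11 its adjusted p ran from 0.00370 to 0.0319.

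Summed over the 9 genes, the signal was 1.70% of all normalized counts, and Ttr and Rgr made up 58.7% of it. The worked-out sum was 291853 in young and 360948 in aged mice, a log2 ratio of 0.31. Rgr gave the largest part of that difference.

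**Figure D2:**
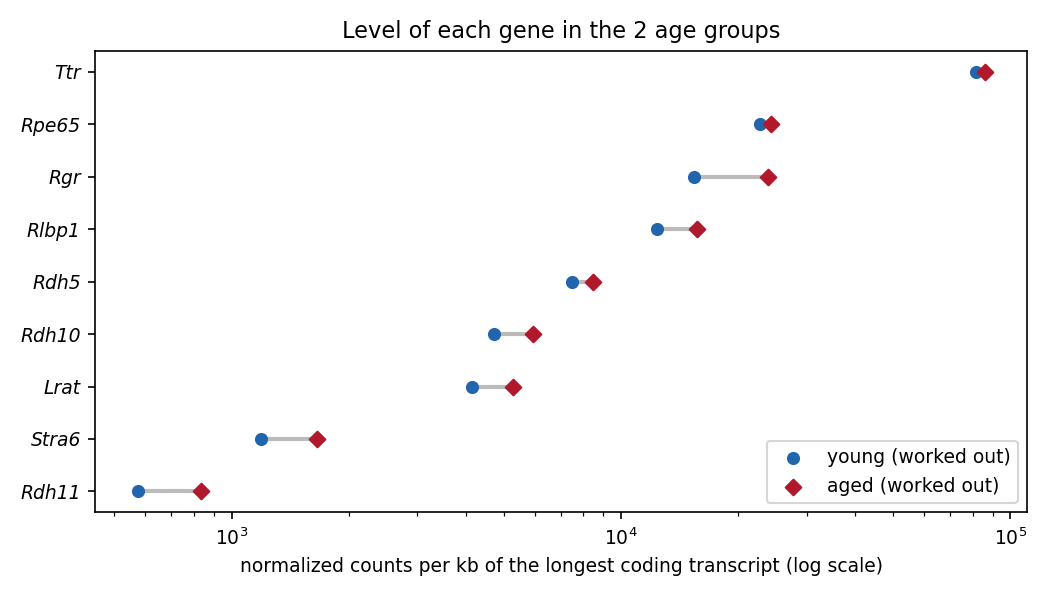
Worked-out mean level of each gene in young (circles) and aged (diamonds) mice, in normalized counts per kb of its longest coding transcript, on a log axis, without error bars because the table gives none per group. Ttr stood highest and Rdh11 lowest, and the gap between the groups was widest for Rgr, Rdh11 and Stra6.

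Levels of different genes were compared per kb of the longest coding transcript in GENCODE M21 (GRCm38). Ttr led with 83745 normalized counts per kb, followed by Rpe65 with 23481, Rgr with 19598, Rlbp1 with 14034 and Rdh5 with 7985. Rdh10 and Lrat followed with 5337 and 4712 per kb, and Stra6 and Rdh11 stood lowest with 1423 and 705 per kb. With no value per library, whether neighbours in this order differ beyond their spread cannot be said. The order also rests on the transcript chosen, as the coding transcripts of Rlbp1 run from 450 to 2142 bases and those of Stra6 from 398 to 3077. Per kb of its shortest one, Rlbp1 would stand above the value given for Rpe65.

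**Figure D3:**
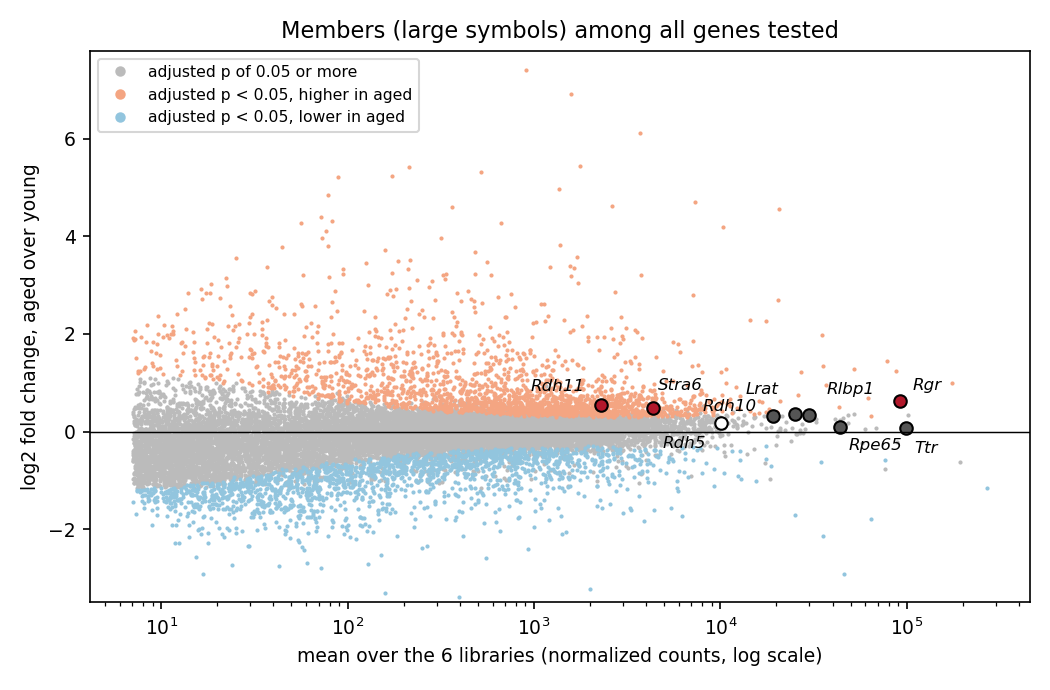
Log2 fold change, aged over young, against the mean over the 6 libraries (log axis) for all 18636 genes tested (small points) and the 9 genes of the set (large symbols, red where the threshold was passed, open for Rdh5, which has no adjusted p). The set lies at the abundant end, with means from 2299 to 99321 normalized counts and log2 fold changes from 0.08 to 0.63. The 2 lowest, Rpe65 and Ttr, turned negative when centred on genes at least as abundant as Rdh11.

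Reads could be given to the other members with little doubt. For Rpe65, Rlbp1, Rdh10, Stra6 and Ttr, 100% of the 31-base words of the coding transcripts occur in no other gene, and for Rdh11 99.6%, for Rgr 99.7% and for Lrat all but 1 of 5321 do. None of these 8 genes shares exon bases with another annotated gene.

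Promoter windows were searched because RPE genes are known targets of OTX2 and MITF, transcription factors of RPE identity. RefSeq (GRCm38.p6) windows of 250 bases before to 50 after a start site were found for 7 of the 9 genes, 11 windows in all. The motifs searched, on both strands, were TAATCC, the core of OTX2 and CRX sites, and the E-boxes CACGTG and CATGTG bound by MITF and related factors. Of 32851 promoter windows, 7.06% hold TAATCC, 7.15% hold CACGTG and 14.2% hold CATGTG. Among members, TAATCC was found in the windows of Rgr and Rpe65, CACGTG in that of 1 of 2 Rdh11 start sites, 2 times, and CATGTG in those of Rgr, Rpe65 and Rlbp1. No match was found in the windows of Lrat, Rdh5 and Stra6.

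The windows of Rgr and of the Rdh11 start site with matches, genes that rose, are shown with that of Rpe65, which did not pass the test. The windows of Stra6, which also rose, held no match and are not shown. Windows shown run from 250 bases before the start site to 10 after it, with motif matches in capitals. They lie at chr14:37049005-37049264 (minus strand), chr12:79190952-79191211 (minus strand) and chr3:159598931-159599190 (plus strand). A match reads GGATTA or CACATG where TAATCC or CATGTG lies on the opposite strand.
Rgr: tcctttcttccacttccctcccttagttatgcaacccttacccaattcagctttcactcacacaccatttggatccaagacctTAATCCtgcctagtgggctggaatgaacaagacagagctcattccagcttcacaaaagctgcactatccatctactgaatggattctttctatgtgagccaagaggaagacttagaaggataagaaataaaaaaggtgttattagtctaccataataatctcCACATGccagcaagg
Rdh11: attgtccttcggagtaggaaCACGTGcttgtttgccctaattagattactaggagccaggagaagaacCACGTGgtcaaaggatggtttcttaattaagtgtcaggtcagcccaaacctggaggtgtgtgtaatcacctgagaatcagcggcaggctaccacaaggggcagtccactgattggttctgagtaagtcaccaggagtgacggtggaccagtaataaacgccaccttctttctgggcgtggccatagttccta
Rpe65: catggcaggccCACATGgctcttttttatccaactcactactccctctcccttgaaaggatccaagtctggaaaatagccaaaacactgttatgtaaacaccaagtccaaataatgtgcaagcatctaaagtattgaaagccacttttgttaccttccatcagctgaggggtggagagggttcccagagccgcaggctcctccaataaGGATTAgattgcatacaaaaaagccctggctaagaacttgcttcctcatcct
TAATCC thus begins 167 bases before the start site in Rgr and 42 bases before it in Rpe65, whose fold changes differed in size, while the Rdh11 window holds CACGTG at 230 and 182 bases before the start site and no TAATCC. These matches are letters found in a window and were not tested as binding sites or against the fold changes.

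The rest of the retinoid pathway was followed through a list of 29 further genes, all of which were in the table, 2 of them under older symbols. Of the 28 tested, 3 were higher in aged mice, 1 was lower, and 24 did not pass, with log2 fold changes from -0.82 to 0.46. The 4 calls made 14.3% of the list, against 21.2% called in either direction over all genes tested. The median log2 fold change of the list was 0.09. Precision was lower than for the members, with a median SE of 0.30 against 0.16, and 6 of the 28 had a mean under 100 normalized counts.

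The largest change was that of 1300002K09Rik, the older symbol of Stra6l, a relative of Stra6 that encodes a second receptor for retinol-binding protein and lies on chromosome 4 at 45848664 to 45887008. Its mean was 174 normalized counts, worked out as 9.0 in young and 338 in aged mice. It was higher in aged mice by 5.23 on the log2 scale (SE 0.32, adjusted p 6.40e-59), which is 37.6-fold with a 95% interval from 24.5 to 57.8. By fold change it ranked 7 among the 18636 genes tested. The tissue is a mixture of cells, and 5 of 7 macrophage markers were also higher in aged mice, with a median of 1.37. Which cells held the RNA of Stra6l was not tested.

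Dhrs3 and Dhrs9, which encode short-chain dehydrogenases acting on retinaldehyde and retinol, were also higher in aged mice. Dhrs3 had a mean of 2872 normalized counts and rose by 0.56 on the log2 scale (SE 0.12, adjusted p 3.02e-05). Dhrs9 had a mean of 9.84 normalized counts only, and its value of 1.31 (SE 0.45, adjusted p 0.0229) rests on few reads. Adh1, an alcohol dehydrogenase that can oxidize retinol, had a mean of 697 normalized counts and fell by 1.20 on the log2 scale (SE 0.28, adjusted p 0.000211).

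Other abundant genes of the list did not pass. Abca4, which encodes a retinoid flippase of photoreceptors and RPE, had a value of 0.18 on the log2 scale (SE 0.15, adjusted p 0.429), and Degs1, a desaturase with reported retinol isomerase activity, had -0.16 (SE 0.14, adjusted p 0.460). A pair of further genes was named after the values were seen. Rrh, the RPE opsin peropsin, had a mean of 2292 normalized counts, and its log2 fold change was -0.04 (SE 0.15, adjusted p 0.885), against 0.63 for the opsin Rgr. Rbp4, the plasma carrier that Stra6 binds, had a mean of 13.9 normalized counts, so the tissue held little of its RNA.

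**Figure D4:**
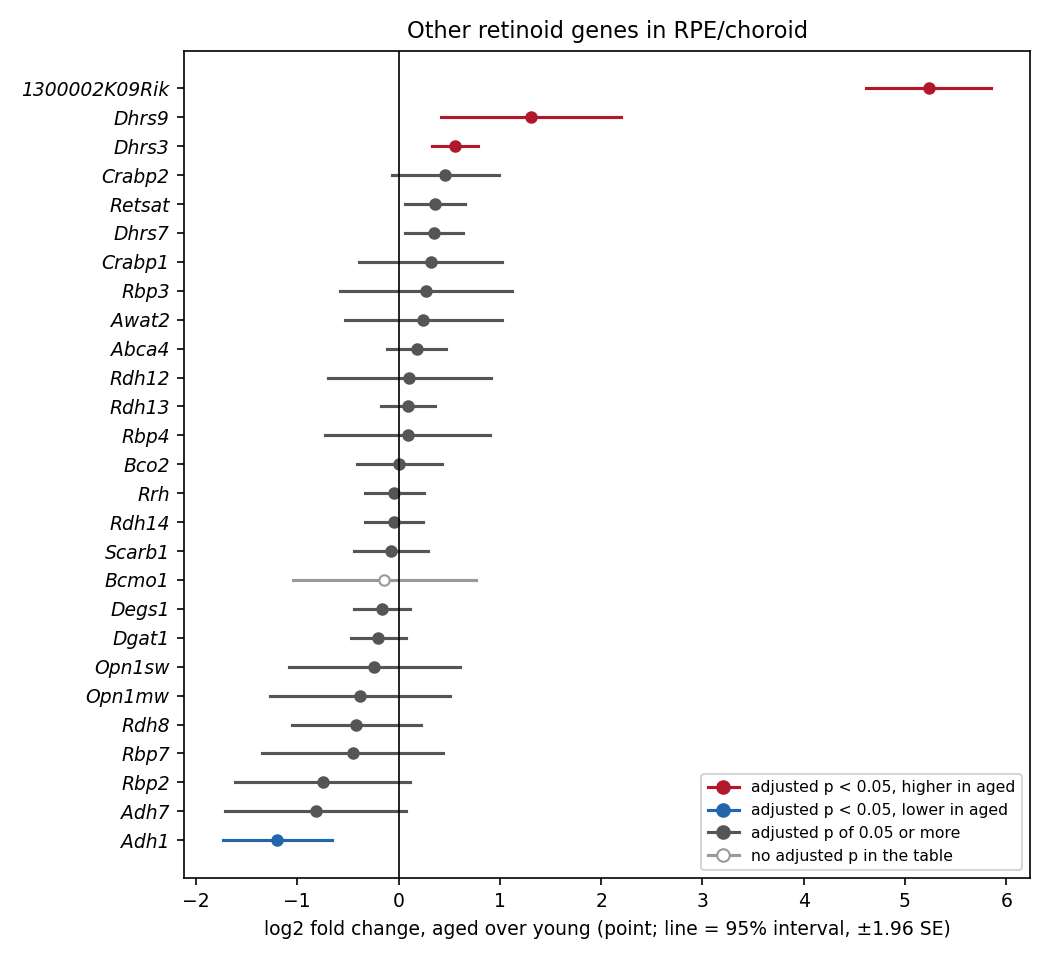
Log2 fold change, aged over young, of 27 of the 29 other retinoid genes (points) with 95% intervals (lines), coloured by the adjusted p. 1300002K09Rik (Stra6l) stood apart at 5.23, Dhrs9 and Dhrs3 were higher and Adh1 was lower, and the intervals of the photoreceptor genes Rbp3, Rdh12, Rdh8, Opn1sw and Opn1mw were wide.

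Retinoid genes of photoreceptors were measured with far larger errors than those of the RPE. Rbp3, the retinoid-binding protein of the space between retina and RPE, had a mean of 5332 normalized counts, and its log2 fold change was 0.27 (SE 0.43, adjusted p 0.718). The 13 rod markers given here, led by Sag and Gnat1, had SEs from 0.38 to 0.43 and made up 0.459% of all normalized counts, so RNA of rods was in the tissue. The SEs of the 9 members ran from 0.15 to 0.18, within the 0.11 to 0.21 that spans the 5 to 95 percentiles of genes tested at their abundance. The median over these rod markers was 0.18 on the log2 scale, with 12 of 13 above 0, 0 called by DESeq2 and 0 at an unadjusted p under 0.05. The part of such RNA in the members' values was not tested.

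**Figure D5:**
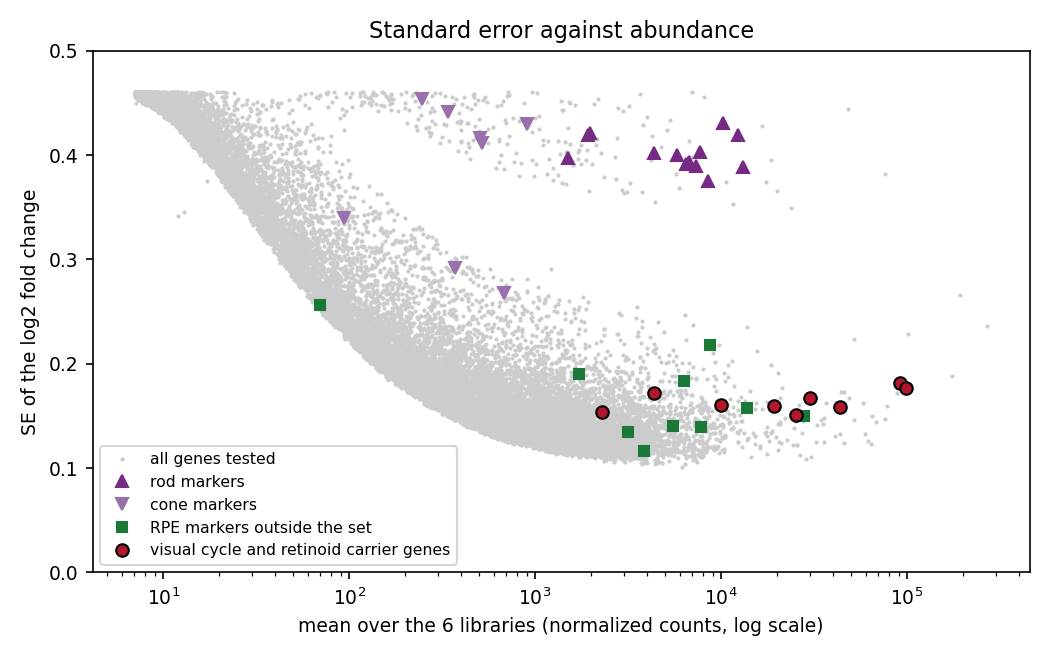
SE of the log2 fold change against the mean over the 6 libraries (log axis) for all genes tested (grey), rod and cone markers (triangles), RPE markers outside the set (squares) and the 9 genes of the set (circles). The 13 rod markers lie between 0.38 and 0.43, far above the members, which lie between 0.15 and 0.18. RPE markers run from 0.12 to 0.26.

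The labelled tissue was checked with RPE markers that are no members. All 10 were present, led by Enpp2, Trpm3 and Slc16a8. Of 9 tested, Ezr, which shapes the apical microvilli, rose by 0.46 on the log2 scale (SE 0.14, adjusted p 0.00840) and Best1, a chloride channel, by 0.68 (SE 0.26, adjusted p 0.0409), and 0 fell. Best1 had a mean of only 69.8 normalized counts and lay just past the 0.66 needed at its SE. Their median was 0.11 over the 9 tested and 0.04 over all 10, and Otx2 had -0.17 (SE 0.12, adjusted p 0.326). Centred on the median of all 10, Rgr (0.59, adjusted p 0.00848) and Rdh11 (0.50, adjusted p 0.00954) remained past the threshold. In bulk tissue, more (or fewer) RPE cells and more (or less) RNA per cell cannot be told apart.

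Markers of other cells moved too, on the log2 scale of aged over young. Muller glia also express Rlbp1 and Rgr. Of 8 genes listed as their markers, led by Glul, Dkk3 and Car14, 7 were tested. Kcnj10 was higher (1.07), Aqp4 (-0.45) and Abca8a (-0.80) were lower, and the median was -0.18. The SEs of the list had a median of 0.16 and a maximum of 0.41 (Gfap), against 0.38 to 0.43 for the rod markers. Those of Glul, Dkk3 and Car14 were 0.11, 0.13 and 0.14. Whether the RNA of this list came from Muller glia was not tested. Of 7 macrophage markers, 5 were higher: Csf1r (0.37), C1qa (1.92), Emr1 (Adgre1, 2.12), Cd68 (3.37) and Itgam (1.37), with a median of 1.37. Of 8 cone markers, led by Opn1sw, Gnat2 and Gnb3, 0 were called by DESeq2 and 0 had an unadjusted p under 0.05, with a median of -0.14. Of 4 melanocyte markers, led by Ednrb, Sox10 and Pax3, Ednrb was lower (-0.41) and the median was -0.06. Of 5 tested endothelial markers, led by Kdr, Plvap and Tek, Tek was lower (-0.44) and the median was 0.06. Of 5 fibroblast markers, the collagen genes Col1a1 (-2.91) and Col3a1 (-2.14) were lower and Dcn was higher (0.51), with a median of 0.21. Of 4 tested skeletal muscle markers, led in the list by Myh4, Acta1 and Ckm, Mylpf was lower (-0.92) and the median was -0.46. No listed marker had a mean of 0. The part of these cells in the values of the members and of the other retinoid genes was not tested.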

How the data were processed

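RNA of 3 young and 3 aged RPE/choroid samples was analysed from 1 deposited table. Per the study's methods, reads were trimmed and filtered by BBDuk, STAR aligned the reads to GRCm38 Ensembl transcripts, Sailfish quantified them, and values were scaled to the total count before DESeq2 (version not given in the sources used here). The deposited baseMean is a normalized signal, the mean over all libraries. Fold changes and SEs were deposited on the log2 scale, with the Wald score as deposited by the authors and the p-value and adjusted p-value deposited from DESeq2. The table held 0 further columns of values. The header does not state the sign. It was read as young over aged, because the split of positive and negative genes, and the sides on which immune genes (Cd68, C1qa) and matrix genes (Col1a1, Col3a1) lie, fit only that order of the groups in the study's description. It was then reversed. SEs level off at 0.460. Whether fold changes were shrunk is not given in the sources used here. Shrinkage would understate changes of genes with a large SE, such as low genes and rod genes, and would carry over to the worked-out group means.

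Columns of the authors' comparison were described, not refitted. Recomputing p and adjusted p from them gave the deposited values to within 0.449% and 0.572%. Intervals of 95% are normal intervals from the SE, and the Wald test is two-sided. Benjamini-Hochberg adjustments were redone in Python 3.11.15 (SciPy 1.17.1) for the alternatives, and the code was tested on simulated data. The members, gene lists and motifs were chosen with earlier results of these data known. Genes named are the 9 members, called genes and the 5 most abundant of the other retinoid list, and the 3 most abundant markers of each tissue list. Other markers (the called ones and Otx2) were named after their values were seen. Some genes that this rule would name or plot are not reported here. Older symbols were matched through RefSeq's table.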

Additional observations from a re-analysis of the deposited data

How the results depend on the processing

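The call of higher expression in aged mice was kept by Rgr and Rdh11 under both low-value filters, an adjusted p under 0.01 and the Wald p for genes with no p-value, and under the 3 centrings at an adjusted p under 0.05. A minimum absolute log2 fold change of 1 left 0 of the 9 members, as it is stricter by construction, and 1542 genes in all, and an adjusted p under 0.01 left 2520 genes in all, against 3949. Stra6 was lost under that stricter p and under each of the 3 centrings, which left 2 members. Centring on genes at least as abundant as Rdh11, chosen after the data had been seen, turned Rpe65 to -0.0453 and Ttr to -0.0654, both near 0. Centring moved the split of all genes of 2100 higher and 1849 lower to 1655 and 2289 with genes of a mean of at least 100, and to 1335 and 3106 with genes at least as abundant as Rdh11. The count of other retinoid genes stayed at 3 or 4. Precision limits the rest, as log2 differences under 0.39 to 0.46 could not pass at the members' SEs. No paired analysis was possible because single libraries have no column in the table. Leaving out libraries in turn, a replicate block, edgeR and limma were therefore not run.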
